A study of Mus musculus with 23 samples.

Results

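The resting transcriptome of a conduit artery was set against that of resistance arteries in mice that had received vehicle. The comparison held 8 of the 23 arrays of the study, 3 arrays of Sham thoracic aorta and 5 arrays of Sham mesenteric arteries, taken by their vessel and treatment labels. All 8 arrays came from male C57BL/6J mice, in which an osmotic minipump delivered vehicle for 14 days from the age of 12 weeks. The mesenteric sample was the second and the third order branches of the superior mesenteric artery, and both vessels were dissected free of surrounding tissue before RNA was isolated. Each array carried the pooled RNA of the same vessel from 2 mice, so that no array represents a single animal. Some pools of different vessels must have shared mice, which ones is not stated, and the arrays were treated as independent samples. Values are log2 signals of an Illumina WG-6 v2.0 chip, on which each probe has its own affinity, so that a gene is compared between vessels and never with another gene.

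The thoracic aorta is an elastic conduit artery. Its wall is built of many lamellae of elastin and smooth muscle, which store part of each heartbeat and release it in diastole. Small mesenteric branches are muscular resistance arteries, in which smooth muscle tone, nerves, the endothelium and its gap junctions set flow to the gut. The 2 vessels also arise in different places along the body axis and lie in different fat, brown around the thoracic aorta and white in the mesentery.

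A transcript was tested when its detection p was under 0.01 on at least 3 of the 8 arrays, which left 19308 transcripts and 10461 named genes, each gene standing for its brightest probe. Between 17560 and 18417 transcripts were detected on the thoracic arrays and between 18270 and 18657 on the mesenteric arrays. Of the transcripts tested, 10300 or 53.3% differed between the vessels at an adjusted p under 0.05 in limma. Of the genes, 2862 (27.4%) were higher in thoracic aorta and 2806 (26.8%) were lower. These shares over all genes are the background for the Sham counts of each list that follows. Differences of at least 2-fold were less evenly divided, with 547 genes (5.23%) higher and 1205 genes (11.5%) lower in thoracic aorta. The median difference over all genes was 0.04 on the log2 scale. Correlations between arrays were 0.992 to 0.994 within thoracic aorta, 0.972 to 0.992 within mesenteric arteries and 0.894 to 0.919 between the vessels.

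The direction of small differences depended on how arrays were put on a common scale. Of the transcripts called, 56% were higher in thoracic aorta after quantile normalization and 45.9% after cyclic loess. The log2 values that the authors deposited were normalized within each vessel. Each vessel thus has its own median there, and uncentred differences between vessels carry that offset. In these values the median gene was 0.33 lower in thoracic aorta (median difference -0.33) and 7.92% of the calls were higher there. Once each array was centred on its median, 69.1% of the calls were higher. Of 40 ribosomal protein genes, which most cells express in quantity, 1 was higher and 1 was lower, with a median of 0.00. On the deposited values none was higher and 36 were lower, with a median of -0.37. Tbp, the general transcription factor that binds the TATA box, differed by 0.07 ± 0.09 (SE) and did not pass the test, whereas on the deposited values it was lower by 0.36 (difference -0.36) and passed.

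Smooth muscle genes were strong in both vessels, and genes of neighbouring tissue were present as well. Acta2, the smooth muscle actin, read 14.5, 14.54 and 14.48 on the thoracic arrays and 14.35, 14.23, 14.32, 14.5 and 14.37 on the mesenteric arrays, and its difference of 0.15 did not pass the test (0.37 and passing in the centred deposited values). The summed signal of 19 genes of the exocrine pancreas, which lies against the mesenteric vessels, was 9.65 to 9.96 on the thoracic arrays. On mesenteric arrays 1 to 5 it was 18.33, 11.28, 12.92, 14.19 and 12.52, so that array 1 stood far above the rest. Cela2a, a pancreatic elastase, read 14.37 on mesenteric array 1 and 4.62, 9.4, 11.19 and 8.54 on the other mesenteric arrays. Without mesenteric array 1, 9997 transcripts differed, of which 9668 were calls of the full comparison in the same direction. With array 1 in place 5 of the 19 pancreas genes were lower in thoracic aorta, without it all 18 that were still measured were, and without mesenteric array 2 it was 14. The summed signal of 5 red blood cell genes was 12.41 to 14.48 on the thoracic and 13.93 to 15.94 on the mesenteric arrays, and all 5 were lower in thoracic aorta. That count fell to 1 without thoracic array 2, to 3 without thoracic array 3 and to 1 with a trended and robust prior.

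The largest differences ran from complete presence to absence. Of all transcripts, 358 were detected on all 3 thoracic and on no mesenteric array, and 719 on all 5 mesenteric and on no thoracic array. Where a gene was not detected in a vessel, its signals were set to the lowest detected signal of their array, 4.95 to 5.13 on the log2 scale, and "at least" marks a fold that is bounded from below. Ucp1, the uncoupling protein by which brown fat makes heat, read 11.09, 10.2 and 9.98 on the thoracic arrays and 4.23, 4.19, 4.29, 4.2 and 4.32 on the mesenteric arrays, where it was not detected. It was at least 43.4-fold higher in thoracic aorta (adjusted p = 7.47e-10). Like every gene not detected in a vessel, Ucp1 entered the test through the other vessel alone. Its adjusted p and the counts of lists that hold such genes carry that limit. Whole vessels were lysed, so fewer cells of a type and less RNA per cell cannot be told apart, here or in any result that follows.

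Sfrp2, a secreted protein that binds Wnt ligands, read 8.9, 9.19 and 9.19 on the thoracic arrays and 4.51, 4.61, 4.72, 4.65 and 4.51 on the mesenteric arrays. It was at least 17.3-fold higher in thoracic aorta (adjusted p = 6.87e-11). Wnt16, a Wnt ligand, read 9.57, 9.47 and 9.8 against 4.29, 4.56, 4.28, 4.5 and 4.46 and was at least 24.7-fold higher. Itih4, a heavy chain of the inter-alpha-trypsin inhibitors, was detected on every array of both vessels. Its signals were 11.76, 11.74 and 11.71 in thoracic aorta and 6.52, 5.75, 5.9, 5.54 and 5.48 in mesenteric arteries, a 59.6-fold difference (5.90 ± 0.20 on the log2 scale). Igsf9, an immunoglobulin-type adhesion protein, differed by 4.91 ± 0.09 and its thoracic signals of 10.71, 10.67 and 10.72 lay far above the highest mesenteric signal of 5.95.

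Other genes among the 15 furthest above in thoracic aorta were Ky, a protein of the muscle cytoskeleton (difference 4.45), the lipid transfer protein Osbpl3 (3.84), Emb, a partner of lactate transporters (3.78), Vstm2b (3.78) and Lgr6, a receptor for R-spondins that was detected on 1 of the 5 mesenteric arrays (4.47). Bex4, Mia, a secreted protein of cartilage, 2900055J20Rik and Sh3rf2 were not detected in mesenteric arteries and were at least 13.7-fold, 13.4-fold, 12.9-fold and 10.1-fold higher. The ranking took only genes that passed and whose arrays did not overlap between the vessels, which held for 5236 of the 10461 genes.

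In the other direction the list, from which the pancreas genes were left out, opened with lymphatic and nerve genes. Ccl21a, the chemokine by which lymphatic vessels attract dendritic cells and T cells, read 12.67, 13.06, 12.98, 13.13 and 12.93 in mesenteric arteries and 7.34, 7.66 and 7.24 in thoracic aorta, a 46.6-fold difference (-5.54 ± 0.13). Probes for Ccl21c (-5.72) and LOC100041504 (-5.59) moved with it, and because these copies are nearly identical in sequence the signal cannot be assigned to one of them. Reln, a secreted glycoprotein that lymphatic endothelium makes, read 11.04, 11.35, 11.58, 11.48 and 11.19 against 5.84, 6.1 and 5.43. Mmrn1, another lymphatic marker, was detected on 1 of the 3 thoracic arrays and differed by -5.15.

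Mbp, myelin basic protein, read 10.57, 10.65, 11.0, 10.63 and 10.8 in mesenteric arteries and 5.18, 5.59 and 5.29 in thoracic aorta. Sox10, the transcription factor of Schwann cells, was not detected on any thoracic array and was at least 20.2-fold lower there. Corin, the protease that activates atrial natriuretic peptide, read 9.3, 9.09, 9.21, 9.35 and 9.47 in mesenteric arteries against 4.32, 4.4 and 4.38, and was at least 18.5-fold lower in thoracic aorta. Tcf21, a transcription factor of visceral mesenchyme, was at least 12.2-fold lower, and Sostdc1, an antagonist of bone morphogenetic proteins, at least 14.4-fold lower. Slpi, a protease inhibitor of mucosal surfaces, was at least 17.3-fold lower, with mesenteric signals that spread from 8.44 to 10.41. Adam23 and Cmtm5 were not detected in thoracic aorta and were at least 21.8-fold and 11.3-fold lower. Stc2 differed by -4.55, and the growth factor Ptn, detected on 2 of the 3 thoracic arrays, by -4.16.

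**Figure D1:**
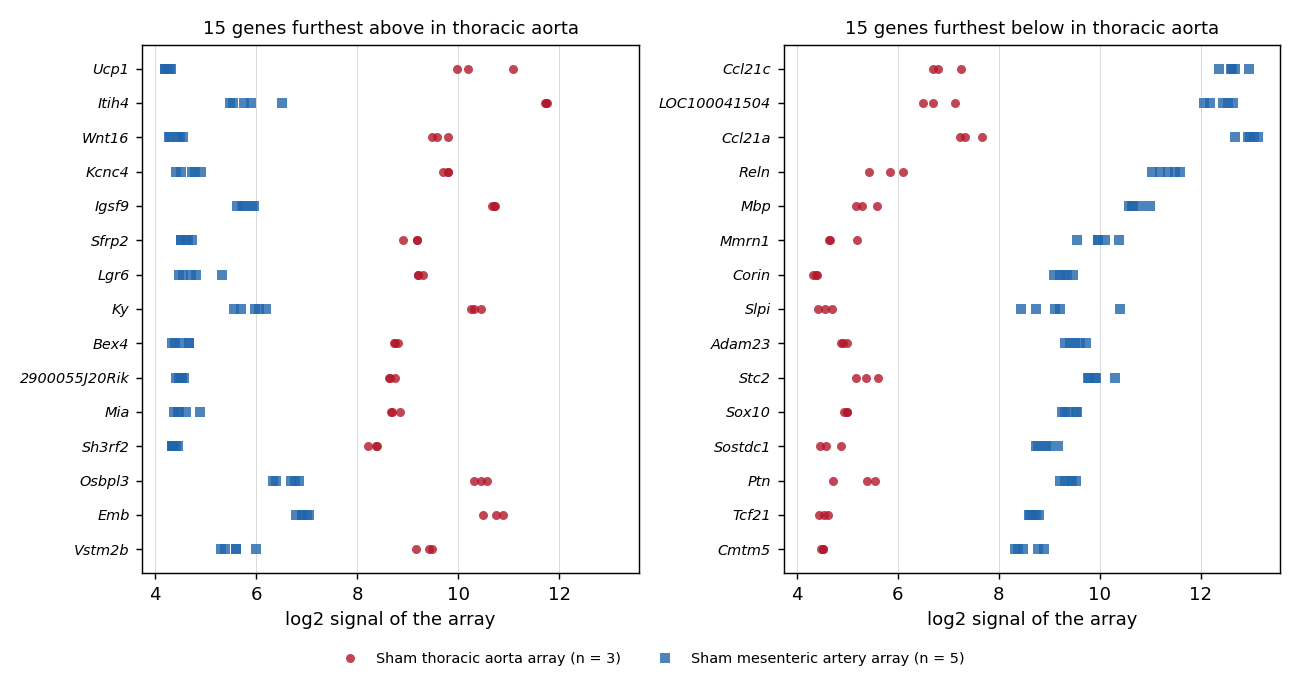
Log2 signal of each array for the 15 genes furthest above (left) and the 15 furthest below (right) in thoracic aorta, with circles for the 3 thoracic and squares for the 5 mesenteric arrays. Genes with overlapping arrays and pancreas genes were left out of the ranking, so the empty interval in every row follows from the choice. The mesenteric signals of Slpi, from 8.44 to 10.41, spread most.

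Hox genes encode the transcription factors that give cells an address along the trunk, and adult vessels keep part of this code. Of 21 measured, 9 were higher in thoracic aorta, 8 were lower and 4 did not pass, with a median of 0.15 that turned to -0.22 in the deposited log2 values. All 9 higher genes were among the 13 of the Hoxa and Hoxb clusters, and all 8 genes of the Hoxc and Hoxd clusters were lower. The split was not complete in the deposited values, with 5 higher and 13 lower, nor after centring, with 12 higher and 6 lower. Detection on all 8 arrays left 14 Hox genes, 9 higher and 2 lower, so most lower calls came from genes not detected on every array. Hoxd8 read 8.05, 8.4, 8.07, 8.5 and 8.14 in mesenteric arteries and 4.89, 5.52 and 5.0 in thoracic aorta, a difference of -3.10 ± 0.16 (adjusted p = 2.11e-08), and it was detected on 1 of the 3 thoracic arrays. Hoxd4 read 7.81, 8.17, 7.93, 8.19 and 7.81 against 5.53, 5.49 and 5.6, a difference of -2.44. Hoxd9 was at least 4.71-fold lower and Hoxc9 at least 3.46-fold lower in thoracic aorta, where neither was detected. On the other side, Hoxa7 read 10.27, 10.23 and 10.29 in thoracic aorta and 9.06, 9.11, 9.3, 9.33 and 9.15 in mesenteric arteries, a difference of 1.08 ± 0.09. Hoxb5 differed by 1.03.

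**Figure D2:**
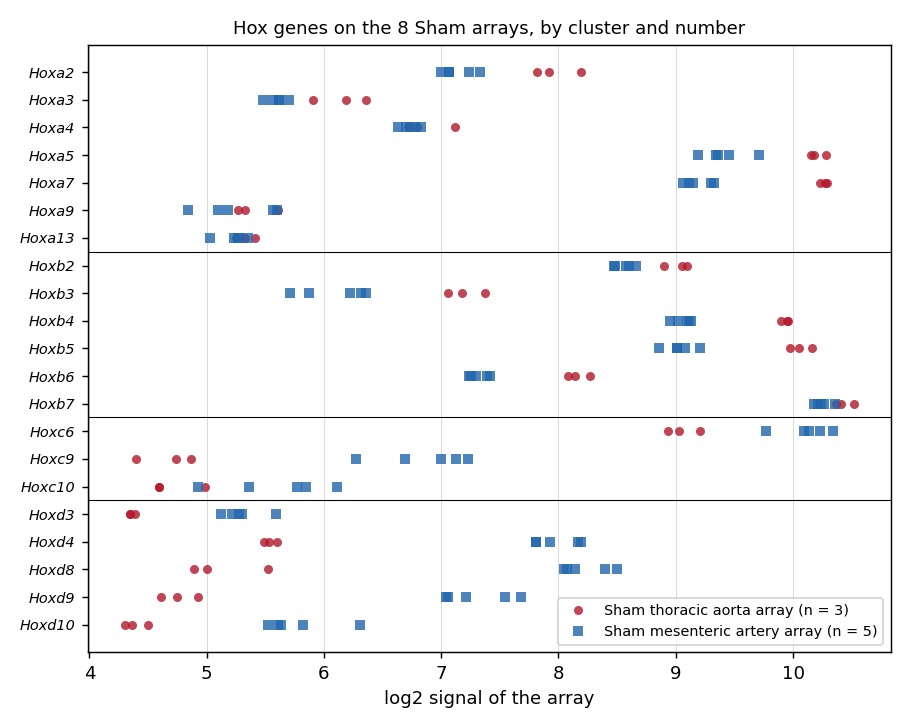
Log2 signal of each array for the 21 measured Hox genes, grouped by cluster (a, b, c, d) and ordered by number within it, with circles for thoracic and squares for mesenteric arrays. Thoracic signals lie to the right for the 9 genes of the a and b clusters that passed, by 1.08 for Hoxa7, and to the left in the c and d clusters, by 3.10 for Hoxd8 (difference -3.10).

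Other transcription factors of embryonic patterning differed in both directions. Of 37 measured, 14 were higher and 17 lower in thoracic aorta, with a median of -0.24. Tbx18, a T-box factor of mural cell and epicardial lineages, read 7.31, 7.33 and 7.33 in thoracic aorta and was not detected in mesenteric arteries, at least 5.06-fold higher in thoracic aorta. Twist1, a factor of mesenchymal cells, differed by 2.71 ± 0.08. Nkx2-3, a homeobox factor of gut and spleen mesenchyme, read 11.37, 11.57, 11.22, 11.36 and 11.26 in mesenteric arteries and 7.8, 7.69 and 7.39 in thoracic aorta, a 13.3-fold difference. Tbx3 was at least 3.03-fold lower in thoracic aorta.

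Genes of the contractile apparatus were higher in thoracic aorta in most cases, with exceptions among the intermediate filaments. These genes are switched on by serum response factor, Srf, which binds the CArG box, a CC followed by 6 A or T and then GG, together with its partner myocardin, Myocd. Of 32 measured, 23 were higher, 5 were lower and 4 did not pass, with a median of 0.62 (0.14 in the deposited log2 values), and 6 were at least 2-fold higher against 2 at least 2-fold lower. Itga8, the integrin subunit alpha 8 of smooth muscle, read 10.66, 10.92 and 10.95 in thoracic aorta and 7.52, 8.06, 7.39, 7.39 and 7.68 in mesenteric arteries, a 9.43-fold difference. Myocd read 11.37, 11.78 and 11.62 against 9.99, 10.45, 9.94, 10.36 and 10.02, a difference of 1.44 ± 0.14 (adjusted p = 4.35e-06). Both genes passed and were separated between the vessels on every array, as were 5236 of all 10461 genes.

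Calponin 1, Cnn1, differed by 1.34 and smoothelin, Smtn, by 1.26. In contrast, Des, which encodes desmin, the muscle intermediate filament, read 12.21, 12.37, 11.93, 12.44 and 12.28 in mesenteric arteries and 8.92, 8.85 and 8.7 in thoracic aorta, a 10.7-fold difference. Synm, a desmin partner, differed by -1.45 ± 0.10. Acta1, the skeletal muscle actin, belongs to a separate list of heart and skeletal muscle genes. It was at least 6.85-fold lower in thoracic aorta, where it was not detected. Of the 11 genes of that list measured, 5 were higher and 4 lower, with a median of 0.04.

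A CArG box lay within 250 bases before the start of 5 of the 27 contractile genes with a RefSeq promoter, and within those of 1.47% of all 32851 promoters. The 5 genes were Myl9 (difference 0.27), Fbxl22 (1.23), Cnn2 (0.74), Vcl (0.83) and Srf itself (0.78), and all were higher in thoracic aorta, with exceptions by setting. Myl9 missed the threshold when any of 6 single arrays was left out and was at -0.03 in the deposited log2 values, where Cnn2, at 0.14, did not pass either. The other 22 genes hold no such letters in this window. The 5 windows are shown to let the matches be read, with the CArG box in capitals on the gene's own strand. The windows are from GRCm38.p6 at chr2:156775273-156775342 (plus strand) for Myl9, chr9:66514776-66514843 (minus) for Fbxl22, chr10:79988514-79988583 (plus) for Cnn2, chr14:20929148-20929210 (plus) for Vcl and chr17:46556185-46556274 (minus) for Srf, which holds 2 boxes. A match is a description of the letters and not evidence of binding.
Myl9: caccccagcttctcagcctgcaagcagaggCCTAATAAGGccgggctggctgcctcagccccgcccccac
Fbxl22: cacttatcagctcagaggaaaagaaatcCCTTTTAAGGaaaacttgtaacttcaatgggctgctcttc
Cnn2: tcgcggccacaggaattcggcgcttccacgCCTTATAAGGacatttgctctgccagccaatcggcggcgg
Vcl: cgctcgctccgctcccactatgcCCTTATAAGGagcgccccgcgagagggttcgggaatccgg
Srf: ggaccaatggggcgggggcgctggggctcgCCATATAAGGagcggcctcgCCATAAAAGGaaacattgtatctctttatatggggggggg

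Potassium channels set the resting potential of smooth muscle and with it the tone of the vessel. Of 16 measured, 8 were higher in thoracic aorta and 6 were lower, with a median of 0.54 that turned to -0.07 in the deposited log2 values. Kcnc4, a voltage-gated subunit, read 9.79, 9.8 and 9.69 in thoracic aorta and was not detected in mesenteric arteries, where its signals were 4.42, 4.51, 4.91, 4.79 and 4.73. It was at least 27.4-fold higher in thoracic aorta. Abcc9, the sulfonylurea receptor of vascular ATP-sensitive channels, read 10.08, 10.24 and 10.1 against 7.67, 7.55, 7.7, 7.77 and 7.44, and its pore subunit Kcnj8 differed by 1.09. Kcnq5, another voltage-gated subunit, differed by 2.25. Kcnmb1, the subunit by which large-conductance channels sense calcium more sharply, read 10.01, 9.94 and 10.17 against 8.4, 8.63, 8.22, 8.62 and 8.78, a 2.85-fold difference, while the pore gene Kcnma1 differed by 0.69 (0.01 in the deposited log2 values, where it did not pass).

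The voltage-gated subunits named Kcna were lower in thoracic aorta. Kcna6 read 9.57, 9.85, 9.97, 9.81 and 9.96 in mesenteric arteries and 6.28, 6.39 and 5.9 in thoracic aorta, a 12.5-fold difference. Kcna2, detected on 2 of the 3 thoracic arrays, differed by -3.04, and Kcna5 was at least 3.92-fold lower in thoracic aorta. Peripheral nerve also expresses channels of this family, genes of Schwann cells and nerve were lower in thoracic aorta as well, and their part in the channel differences was not tested. Kcnk2, a stretch-sensitive channel, was at least 2.8-fold lower, and Kcnn4, a calcium-activated channel of endothelium, differed by -1.51.

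Of 30 genes of calcium handling and chloride channels, 11 were higher and 14 lower in thoracic aorta, with a median of -0.19 that turned to 0.09 in the centred deposited values. Ano1, the calcium-activated chloride channel of smooth muscle, was detected on 3 of the 5 mesenteric arrays and differed by 2.64 ± 0.17, and Cacna2d1, an accessory subunit of voltage-gated calcium channels, by 2.15. Sln, sarcolipin, an inhibitor of the sarcoplasmic calcium pump, read 7.82, 8.03, 7.97, 8.03 and 8.16 in mesenteric arteries and was not detected in thoracic aorta, at least 7.61-fold lower. Pln, phospholamban, which inhibits the same pump, read 6.96, 7.57, 7.03, 7.25 and 7.3 and was at least 4.44-fold lower. Cacna1h, a T-type calcium channel subunit, was at least 9.63-fold lower, and Trpv4, a calcium entry channel of endothelium, was 4.0-fold lower.

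**Figure D3:**
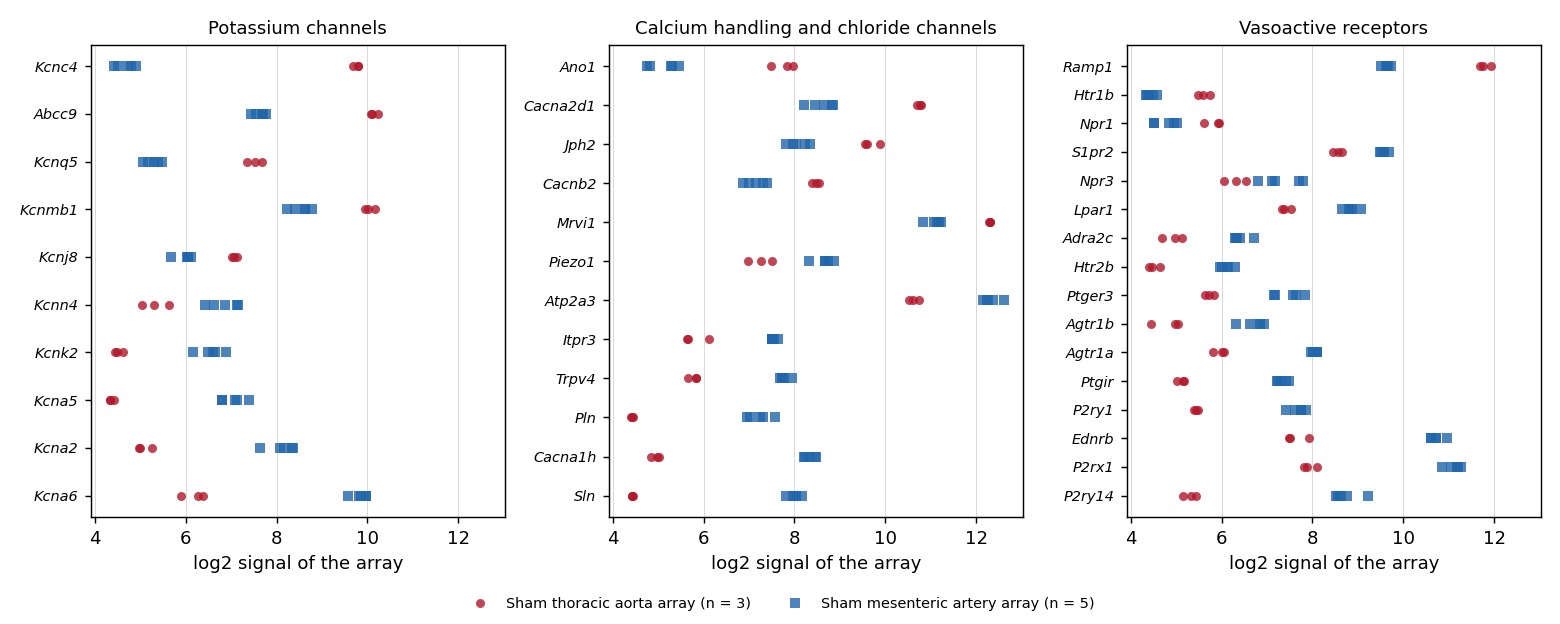
Log2 signal of each array for the genes with a difference of at least 2-fold that passed the test among potassium channels (10 genes), calcium handling and chloride channels (12 genes) and vasoactive receptors (16 genes), ordered from highest to lowest in thoracic aorta relative to mesenteric arteries. Circles are thoracic and squares mesenteric arrays, and 5, 5 and 3 of the genes drawn are higher in thoracic aorta.

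Receptors for vasoactive hormones, transmitters and nucleotides were lower in thoracic aorta for the most part. Of 26 measured, 18 were lower, 6 higher and 2 did not pass, with a median of -0.98 (-0.49 in the centred deposited values). The count of higher receptors was 3 without thoracic array 1 or 2 and in the deposited values. P2rx1, the ATP-gated channel through which sympathetic nerves contract small arteries, read 11.21, 11.28, 10.86, 11.19 and 11.05 in mesenteric arteries and 8.09, 7.87 and 7.81 in thoracic aorta, a 9.15-fold difference. P2ry14, a receptor for UDP-sugars, was 10.8-fold lower. Ednrb, the endothelin B receptor, read 10.73, 10.62, 10.73, 10.97 and 10.61 against 7.48, 7.93 and 7.5, an 8.54-fold difference, and Ptgir, the prostacyclin receptor, detected on 2 of the 3 thoracic arrays, differed by -2.22.

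Agtr1a, the main angiotensin II receptor of rodent vessels, read 8.07, 7.96, 8.02, 8.11 and 8.09 in mesenteric arteries and 6.0, 6.06 and 5.81 in thoracic aorta, a 4.27-fold difference (adjusted p = 4.99e-09). Agtr1b was at least 3.12-fold lower in thoracic aorta. Of 8 measured genes of the renin-angiotensin system, 6 were lower and none was higher, and Agt, which encodes the precursor angiotensinogen and is made by fat as well as liver, was at least 2.54-fold lower. The exceptions among receptors were led by Ramp1, the partner that makes a receptor respond to the vasodilator peptide CGRP. It read 11.76, 11.7 and 11.93 in thoracic aorta and 9.61, 9.67, 9.52, 9.73 and 9.65 in mesenteric arteries, a 4.46-fold difference.

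Of 26 genes of nitric oxide and cyclic nucleotide signalling, 10 were higher and 12 lower, with a median of -0.12. Pde5a, the phosphodiesterase that breaks down cyclic GMP, differed by 2.08 ± 0.13, Gucy1b1, the beta subunit of soluble guanylate cyclase, by 1.61 and its alpha subunit Gucy1a1 by 0.55. Ptgis, prostacyclin synthase, read 13.5, 13.47 and 13.55 against 11.83, 12.03, 11.82, 12.25 and 11.89. Nos3, the endothelial nitric oxide synthase, was lower in thoracic aorta, with 8.75, 8.88 and 8.58 against 11.09, 10.93, 11.01, 11.01 and 11.05, a 4.86-fold difference. Among the connexins of gap junctions, 2 of 5 were higher and 3 lower. Gja1, connexin 43, differed by 1.15, whereas the endothelial connexins Gja4 and Gja5 differed by -2.23 and -1.71.

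Elastin and several cartilage proteins were higher in thoracic aorta. Eln, elastin, read 13.2, 13.32 and 13.2 in thoracic aorta and 12.02, 12.32, 12.0, 12.22 and 12.24 in mesenteric arteries, a 2.12-fold difference. Ltbp1 (1.13) and Ltbp3 (1.06), which tether latent TGF-beta to microfibrils, and the microfibril protein Mfap4 (0.96 ± 0.12) were higher too. Of the 16 elastic fibre genes measured, 8 were higher and 6 lower, with a median of 0.10 that turned to -0.20 in the deposited log2 values. The lower members included Vtn, vitronectin, at least 5.46-fold lower in thoracic aorta, and the fibulins Fbln1 (-1.48) and Fbln2 (-1.72), which fibroblasts also make. Of 24 fibroblast genes measured, 16 were lower in thoracic aorta and 2 were higher.

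Of 10 measured genes of a cartilage-like matrix, 5 were higher and 3 lower, with a median of 0.85 (0.04 in the deposited log2 values). That median rests on genes such as Acan, Snorc and Sost, which were detected in no mesenteric array and entered the test through the 3 thoracic arrays alone. Once any 1 thoracic array was left out it lay between -0.68 and -0.72. The 3 lower genes were all at least 2-fold lower, and the lowest differed by -2.18. The summed signal of the list was lower in thoracic aorta, with 14.73 to 14.75 on the thoracic and 14.87 to 14.96 on the mesenteric arrays. Acan, aggrecan, the large proteoglycan of cartilage, read 6.81, 7.18 and 7.21 in thoracic aorta and was not detected in mesenteric arteries, at least 4.24-fold higher. Snorc, a small chondrocyte proteoglycan, was at least 4.13-fold higher and Sost, sclerostin, an inhibitor of Wnt signalling known from bone, at least 7.22-fold higher. Comp, cartilage oligomeric matrix protein, differed by 1.91 and Tnc, tenascin C, which tendon and stretched tissue deposit, by 2.81. Mgp, the calcification inhibitor, differed by 0.01 and did not pass the test, while it passed at 0.24 in the centred deposited values.

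Of 22 basement membrane genes, 10 were higher and 8 lower, with a median of 0.05 (-0.31 in the deposited log2 values). Npnt, nephronectin, a ligand of the integrin that contains Itga8, read 8.04, 8.01 and 7.44 in thoracic aorta and 5.32, 5.44, 5.41, 5.32 and 5.04 in mesenteric arteries. Col4a6 differed by 2.37 and Col4a5 by 1.45, a pair whose chains assemble together. Nid2, nidogen 2, differed by -2.61 and Nid1 by -2.18. Col8a1, a short-chain collagen, read 10.16, 10.05, 9.81, 10.04 and 10.07 in mesenteric arteries and 7.25, 7.2 and 7.26 in thoracic aorta (-2.79 ± 0.09).

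Wnt ligands and their secreted inhibitors differed in both directions. Of 34 genes of the pathway measured, 15 were higher and 13 lower, with a median of 0.27 that turned to -0.22 in the deposited log2 values. Sfrp2, Sost, Wif1 and Wnt16 were detected on no mesenteric array and entered the test through the 3 thoracic arrays alone. Without thoracic array 1, 9 of 29 were higher and 11 lower (median 0.01), and without thoracic array 2, 8 were higher and 12 lower (median 0.06). Besides Sfrp2 and Sost, Wif1 was at least 8.42-fold higher in thoracic aorta, and Dkk3 read 12.5, 12.67 and 12.46 against 9.15, 9.88, 9.35, 9.55 and 9.34, an 8.49-fold difference. Sfrp5, an inhibitor that white fat secretes, was at least 10.4-fold lower, and the ligand Wnt6 at least 4.23-fold lower. Among 32 genes of TGF-beta and BMP signalling 13 were higher and 13 lower, with a median of -0.02. The receptor Bmpr1b read 8.18, 8.17 and 8.35 in thoracic aorta and was not detected in mesenteric arteries, at least 9.48-fold higher.

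The Notch pathway, by which endothelium and smooth muscle signal through direct contact, was lower in thoracic aorta. Of 15 measured genes, 12 were lower and 2 were higher, with a median of -1.49 (-0.92 in the deposited and -0.52 in the centred deposited values). The letters GTGGGAA, the core of the site that the Notch effector RBPJ binds, were searched on both strands in the same windows and lay in 1 of 11 genes of the list with a RefSeq promoter, against 5.42% of all promoters. That gene was Hey2, which did not pass the test (-0.14, against -0.52 and passing in the deposited values). Notch3, the receptor of arterial smooth muscle, read 9.67, 9.62, 9.43, 9.61 and 9.87 in mesenteric arteries and 7.97, 7.73 and 7.67 in thoracic aorta, a 3.6-fold difference. The receptor Notch4 (-1.89) and the target genes Nrarp (-2.52) and Hey1 (-1.54) were lower as well, and the coactivator Maml2 was higher by 1.15. Among axon guidance genes, which also pattern vessels and their nerves, 10 of 28 were higher and 13 lower, with a median of -0.14. Unc5c, a netrin receptor, read 10.07, 10.01 and 10.11 against 6.92, 6.94, 7.06, 6.96 and 7.17, and Slit2, a repulsive ligand, differed by -2.33. Igf2, insulin-like growth factor 2, was 7.75-fold lower in thoracic aorta, with 9.75, 9.9 and 9.84 against 12.73, 12.79, 12.75, 12.9 and 12.76.

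**Figure D4:**
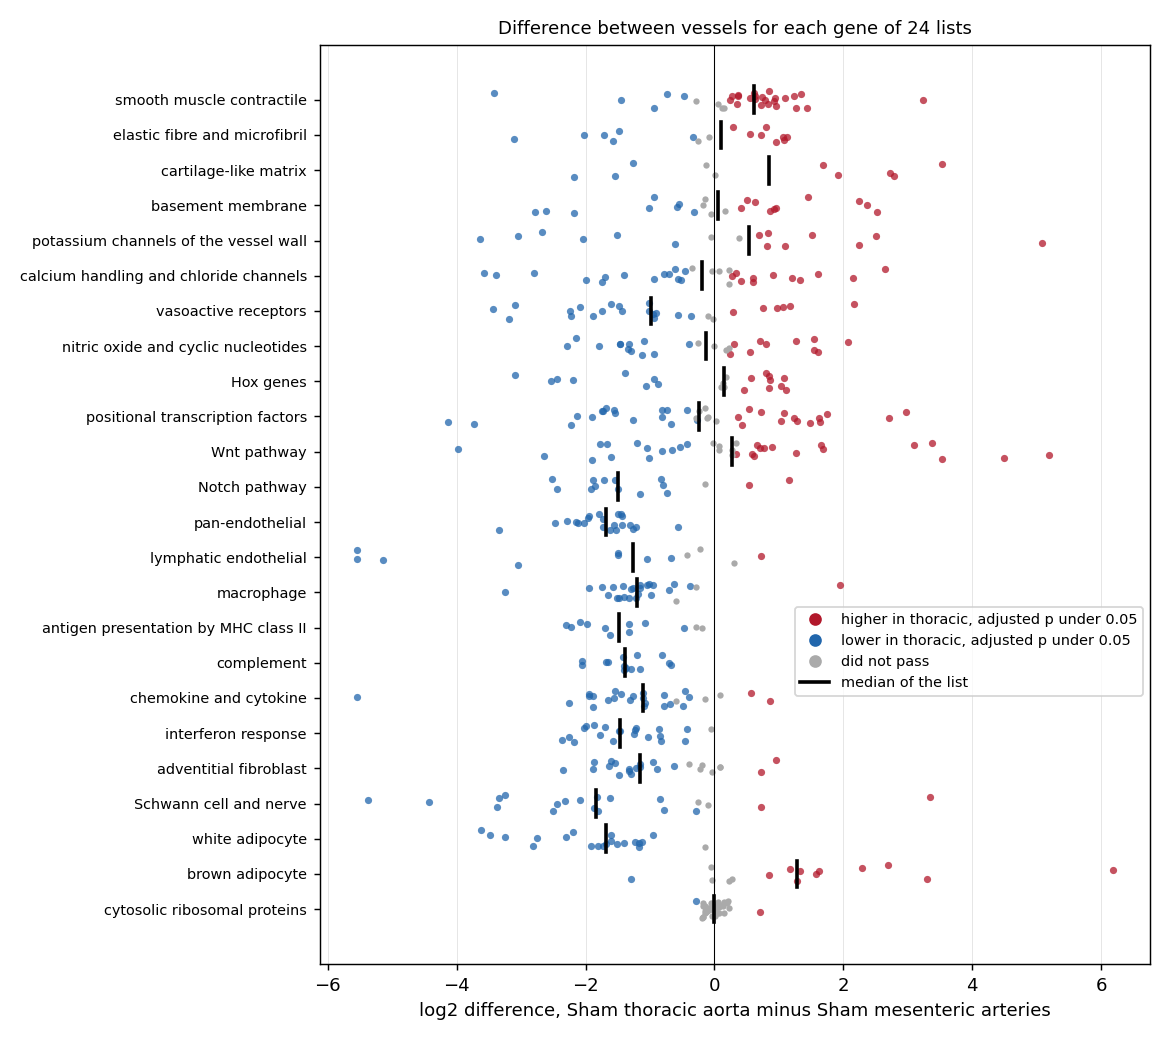
Difference between Sham thoracic aorta and Sham mesenteric arteries on the log2 scale for each measured gene (point) of 24 lists (row), coloured by whether it passed the test, with a black bar at the list's median. All 22 pan-endothelial points lie left of 0, at a median of -1.67, the ribosomal proteins gather at 0.00, and the contractile genes lie mostly to the right, at a median of 0.62.

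All 22 measured pan-endothelial genes were lower in thoracic aorta, 21 of them by at least 2-fold, with a median of -1.67. The adhesion molecule Pecam1 read 12.17, 12.56, 11.96, 12.23 and 12.14 in mesenteric arteries and 10.33, 10.68 and 10.44 in thoracic aorta, a 3.31-fold difference. Cldn5, the tight junction protein claudin 5, was 5.55-fold lower and Robo4, an endothelial roundabout receptor, 10.2-fold lower. Vwf, von Willebrand factor, differed by -1.45 and Sox18 by -2.12. Capillary and venous genes were lower in 16 of 17 cases, among them Ackr1, a chemokine-binding receptor of venules (-2.19). Arterial endothelial genes were lower in 11 of 15 cases and higher in 1, including Sema3g, at least 5.27-fold lower.

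Lymphatic genes were lower in 8 of 12 cases and higher in 1, and their summed signal was 11.04 to 11.17 on the thoracic and 13.84 to 14.17 on the mesenteric arrays. With the test limited to transcripts detected on all 8 arrays, 6 of these genes remained, 5 lower and 1 higher. Lyve1, the hyaluronan receptor of lymphatic endothelium, read 10.39, 10.83, 10.63, 10.6 and 10.54 in mesenteric arteries and 7.44, 7.85 and 7.35 in thoracic aorta. Prox1, the transcription factor that defines lymphatic identity, was not detected in thoracic aorta and was detected on 3 of the 5 mesenteric arrays. Lymphatic vessels run beside the mesenteric arteries, and their part in the endothelial differences was not tested.

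Immune genes were lower in thoracic aorta across several lists. Macrophage markers were lower in 23 of 26 cases and higher in 1, with a median of -1.20. Cd209f, a lectin of resident macrophages, was 9.48-fold lower and Mrc1, the mannose receptor, differed by -1.58. The higher one was Cbr2, a carbonyl reductase, with 12.07, 12.14 and 12.19 against 9.97, 10.25, 10.22, 10.32 and 10.15. All 14 complement genes measured were lower, with C7 at -2.06 and C2 at -1.68, and 10 of 12 genes of MHC class II presentation were lower, with H2-Ab1 at -2.31 ± 0.20. Of 27 chemokines and cytokines, 22 were lower and 2 higher, and Cx3cl1, the membrane-bound chemokine fractalkine, read 9.68, 9.36, 9.29, 9.5 and 9.18 in mesenteric arteries and 7.2, 7.05 and 7.2 in thoracic aorta.

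Interferon-response genes were lower in thoracic aorta in 20 of 21 cases, and none was higher, with a median of -1.46. Interferons induce them through the STAT and IRF factors, which read the interferon-stimulated response element. Rsad2, the antiviral protein viperin, read 8.04, 8.17, 7.88, 7.59 and 8.06 in mesenteric arteries and 5.65, 5.54 and 5.58 in thoracic aorta, a difference of -2.36 ± 0.12 (adjusted p = 2.7e-08). Ifit3 read 10.65, 10.57, 10.44, 9.92 and 10.31 against 8.35, 8.03 and 8.23, a difference of -2.18. Isg15, the ubiquitin-like modifier, differed by -1.87, the guanylate-binding proteins Gbp3 and Gbp2 by -2.26 and -1.57, and the proteasome subunit Psmb8 by -1.99. Mesenteric array 1, the array rich in pancreatic genes, was also the highest mesenteric array for Gbp3 (10.42), Gbp2 (11.9) and Igtp (10.32), and without it the list still had 20 genes lower, at a median of -1.39.

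The response element, searched as GAAANNGAAA on both strands, lay within 250 bases before the start of 8 of the 17 interferon-response genes with a RefSeq promoter and of 2.98% of all 32851 promoters. The 8 genes were Gbp3, Gbp2, Isg15, Bst2, Stat2, Igtp, Rsad2 and Ifit3, and all 8 were lower in thoracic aorta. The other 9 genes hold no such letters in this window. Windows of 4 of the 8 are shown to let the matches be read, with the element in capitals, overlapping copies run together, on the gene's own strand. They lie in GRCm38.p6 at chr3:142559969-142560043 (plus strand) for Gbp3, chr4:156200845-156200926 (minus) for Isg15, chr12:26456533-26456602 (minus) for Rsad2 and chr19:34583343-34583446 (plus) for Ifit3. Gbp3 holds 2 overlapping copies and Isg15 holds 3, and Ifit3 holds 2 that are apart.
Gbp3: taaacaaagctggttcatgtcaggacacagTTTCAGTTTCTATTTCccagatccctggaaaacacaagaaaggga
Isg15: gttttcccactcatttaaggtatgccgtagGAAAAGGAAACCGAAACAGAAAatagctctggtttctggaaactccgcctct
Rsad2: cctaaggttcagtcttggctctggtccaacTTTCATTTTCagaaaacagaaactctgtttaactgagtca
Ifit3: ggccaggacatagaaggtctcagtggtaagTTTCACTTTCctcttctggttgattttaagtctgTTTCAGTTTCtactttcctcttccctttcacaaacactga

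White adipocyte genes were lower in thoracic aorta in 20 of 21 cases and higher in none, with a median of -1.68 and a summed signal of 14.36 to 14.83 on the thoracic and 16.14 to 16.7 on the mesenteric arrays. Adipoq, adiponectin, read 12.72, 13.02, 13.42, 12.96 and 12.98 in mesenteric arteries and 10.36, 10.42 and 9.83 in thoracic aorta, a 7.05-fold difference, and Lep, leptin, differed by -3.62. Brown adipocyte genes were higher in 10 of 15 cases and lower in 1, with a median of 1.28. On the deposited values 9 were higher and 5 lower, with a median of 0.37. Ucp1 was detected on no mesenteric array and entered the test through the 3 thoracic arrays alone. With any 1 thoracic array left out, 8 of 13 were higher and 1 lower, with medians of 0.92, 1.15 and 1.20. Their summed signal was 13.67, 12.91 and 12.59 on thoracic arrays 1 to 3 and 11.01 to 11.59 on the mesenteric arrays. Cox7a1, a mitochondrial subunit of muscle and brown fat, differed by 3.30. Thoracic array 1 was the highest of the 3 for Ucp1 and Cox7a1 (10.9 against 9.81 and 9.43). Both kinds of fat gene were detected on arrays of vessels that had been cleaned, and their part in the other differences was not tested.

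Genes of Schwann cells and nerve were lower in thoracic aorta in 16 of 20 cases and higher in 2, with a median of -1.84 (-1.14 in the deposited and -0.74 in the centred deposited values). With the test limited to transcripts detected on all 8 arrays, 9 of these genes remained, 6 lower and 2 higher. Stmn2, a microtubule regulator of neurons, read 9.94, 9.92, 9.99, 10.17 and 10.12 in mesenteric arteries and 6.63, 6.64 and 6.68 in thoracic aorta. The larger of the higher ones was Ncam1, a neural adhesion molecule that some muscle also expresses, with 11.75, 11.6 and 12.07 against 8.07, 9.23, 8.88, 7.96 and 8.17. Mesothelial genes were lower in 9 of 15 cases and higher in 1, but only 2 were detected on all 8 arrays, of which 1 was lower. Upk3b, a uroplakin of mesothelium, read 8.21, 7.93, 8.26, 7.17 and 7.18 in mesenteric arteries against 5.32, 4.42 and 4.92, and was detected on 1 of the 3 thoracic arrays.

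The same comparison was made on arrays of AngII mice, 3 of thoracic aorta and 6 of mesenteric arteries, none of which the Sham comparison used. These mice had received angiotensin II at 490 ng/kg/min over the same 14 days. Of 19186 transcripts tested, 7643 or 39.8% differed between the vessels. Of the 10023 Sham calls that were tested again, 5958 (59.4%) passed in the same direction and 82 passed in the opposite one. Across 18761 transcripts tested in both, the log2 differences correlated at r = 0.882, which is a correlation across genes that share arrays and are not independent.

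All 22 pan-endothelial genes were lower in thoracic aorta again, with a median of -1.54, and Kcna6 (-3.44), P2rx1 (-3.32), Hoxd8 (-2.30) and Des (-4.27) stood far apart. The contractile genes, at 0.62 in Sham, had a median of 0.07 in AngII mice, where 11 of 32 were higher and 9 lower. Macrophage markers had medians of -1.20 in Sham and -0.44 in AngII, where 15 of 26 were lower and 3 higher. For chemokines and cytokines these were -1.11 and -0.44, with 10 of 25 lower and 2 higher in AngII. MHC class II genes were at -1.48 and -0.63, with 7 of 12 lower and 1 higher in AngII. Fibroblast genes were at -1.15 and -0.35, with 11 of 24 lower and 5 higher in AngII. Over all transcripts in AngII mice, 39.8% differed in either direction. Col8a1 differed by -0.19 in AngII and by -2.79 in Sham, and the test of that change gave 2.61 (adjusted p = 9.78e-08). H2-Ab1 differed by -0.98 in AngII, with a change of 1.38, and Ccl21a by -3.86, with a change of 1.74. Sphk1, the sphingosine kinase that the study followed, did not pass the test in Sham (-0.08 ± 0.11, against -0.45 and passing in the deposited log2 values) and was higher by 1.04 in thoracic aorta in AngII (change 1.11, adjusted p = 0.000928). The change of the vessel difference passed the test for 2352 of 20585 transcripts.

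**Figure D5:**
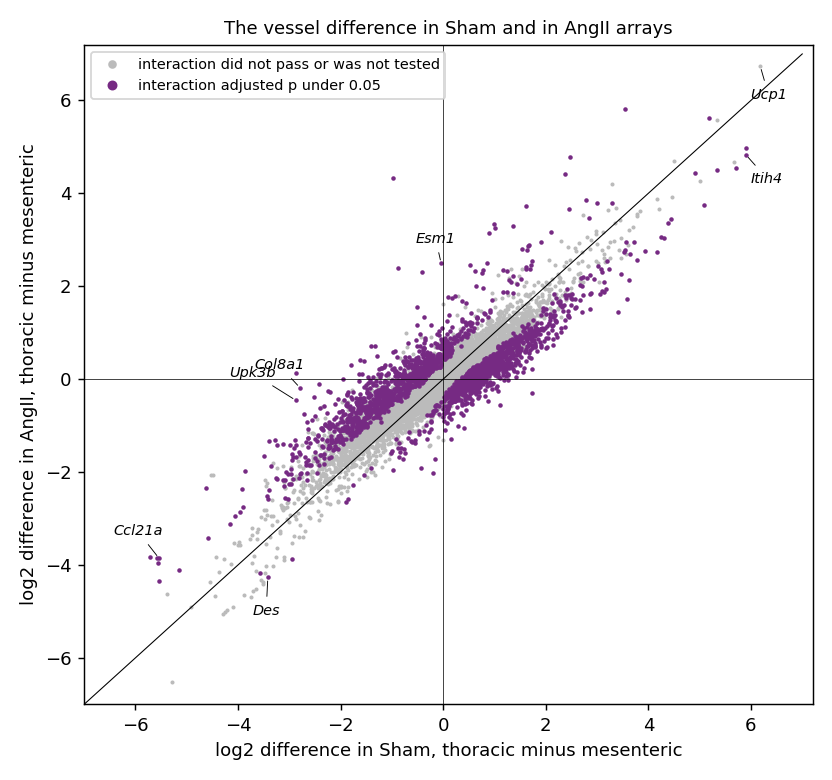
Log2 difference between thoracic aorta and mesenteric arteries in Sham (horizontal axis) and in AngII (vertical axis) for the 18761 transcripts tested in both, with the diagonal of equal difference. Purple points passed the test of a changed difference, among them Col8a1 at -2.79 and -0.19. Genes not detected in a vessel, such as Ucp1, are drawn at their measured signals and not at the lower bounds given in the text.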

How the data were processed

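RNA of pooled vessels was hybridised to Illumina WG-6 v2.0 arrays by the authors, who deposited a table of background-subtracted probe intensity with a detection p-value for each of 45281 transcripts, and log2 values made with lumi in R 3.0.2, in which each vessel has its own median. The intensity columns name a vessel and treatment but not a sample, so arrays are numbered in table order within a group. For all 23 columns the best-correlated deposited column was of the same group.

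The 8 Sham arrays were corrected with normexp (offset 16, negative controls inferred from the detection p-values), quantile normalized together and taken to log2. Tests were made with limma 3.58.1 in R 4.3.3 (lmFit and eBayes), with Benjamini-Hochberg adjustment over all tested and a threshold of 0.05, for transcripts that 3 or more arrays detected (p-value below 0.01). Only the limma step was tested on simulated log2 values, in which few transcripts were changed. Background correction, normalization and the detection filter were not part of that test. AngII arrays were treated in the same way on their own, and the change of the difference was taken from 6 group means over all 23 arrays. Errors are SE of the fit, and precision is limited by how few arrays there are.

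Of the probes, 34885 had 1 gene symbol, 18 several and 10378 none. A gene stands for its brightest probe. Genes were named by rule: 4 markers, the 15 furthest apart in each direction, up to 5 members of each list with the smallest adjusted p in each direction and up to 2 not passing, and genes of the study. The 15 were ranked among genes that passed and had no overlap of arrays between the vessels, with pancreas genes left out. Kcnma1, Pecam1, Vwf, Prox1, Upk3b and the genes with a promoter match were named after their values were seen. The 49 lists and the comparison itself were chosen with earlier results of these data known. Lists overlap, with Ccl21a in the lymphatic and the chemokine list and Stmn2 in the arterial endothelial and the nerve list. Fabp4 and Lpl are in both the capillary and venous list and the white adipocyte list. Promoters (250 bases before a start) are from RefSeq GRCm38.p6. Figures were drawn with matplotlib 3.10.9.

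Alternatives were the deposited log2 values (as given, centred, with a replicate block), other normalizations, filters, offsets and priors, all 23 arrays together, and leaving out each array. Abdominal aorta entered only the fits over 23 arrays.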

Additional observations from a re-analysis of the deposited data

Results flagged for a closer look

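Of the 152 genes named above, the difference between the vessels changed from Sham to AngII for 61 at an adjusted p under 0.05 in limma, fitted over all 23 arrays, against 2352 of all 20585 transcripts tested. Most of the 152 were named for a large or clear difference in Sham, and the same Sham arrays enter the change, so that this choice favours changes toward 0 and the count is not comparable with that over all transcripts. Where a gene was not detected in a vessel, its change is that of the measured signals. Changes are AngII minus Sham on the log2 scale, and a positive change makes thoracic aorta higher relative to mesenteric arteries.

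The largest changes concerned genes that were lower in thoracic aorta in Sham. Genes that were higher there changed as well, such as 2900055J20Rik (-1.29), Kcnc4 (-1.23), Unc5c (-1.23) and Acan (1.21). Col8a1 changed by 2.61, the mesothelial gene Upk3b by 2.31 (adjusted p = 0.000703), Slpi by 2.16 (adjusted p = 0.0142) and the endothelial receptor Robo4 by 1.51. Of the lymphatic genes, Lyve1 and Prox1 did not pass this test, and those that did changed in the same direction, with Ccl21c at 1.96, LOC100041504 at 1.81, Ccl21a at 1.74, Reln at 1.21 and Mmrn1 at 0.97. Sphk1, which did not pass the test in Sham, changed by 1.11. The other positive changes were those of Acan (1.21), Adam23 (1.06), Agtr1a (0.56), Cacna1h (0.90), Cldn5 (0.50), Comp (1.02), Cx3cl1 (1.27), Ednrb (0.96), Fbln2 (0.92), Gbp3 (0.98), Gja4 (0.58), H2-Ab1 (1.38), Hoxd8 (0.70), Ifit3 (0.86), Isg15 (0.80), Nid1 (1.21), Nid2 (0.75), P2ry14 (0.86), Ptn (0.99), Rsad2 (1.24), Sema3g (0.63), Sox18 (0.66) and Wnt16 (0.52).

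Negative changes were found for 2900055J20Rik (-1.29), Abcc9 (-0.72), Bex4 (-1.06), Cacna2d1 (-0.82), Cbr2 (-0.46), Cnn1 (-0.70), Des (-0.79), Fbxl22 (-1.17), Gucy1a1 (-0.74), Gucy1b1 (-0.76), Igf2 (-0.85), Igsf9 (-0.46), Itga8 (-0.93), Itih4 (-1.07), Kcnc4 (-1.23), Kcnma1 (-0.64), Ky (-0.98), Myocd (-0.60), Pde5a (-0.72), Ptgis (-0.43), Ramp1 (-0.72), Sh3rf2 (-1.05), Sln (-0.74), Snorc (-0.40), Sost (-0.65), Srf (-0.75), Unc5c (-1.23) and Vstm2b (-1.15).

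Among the 5 Sham mesenteric arrays, 1 array stood apart from the rest for 7 of the named genes, by a ratio of gap to range above 0.71. Chance alone marks about 1 in 20 groups in this way. Mesenteric array 1, the array rich in pancreatic genes, was the highest for Gbp2 (ratio 0.879, 11.9 against 11.11 for the nearest) and Igtp (0.737, 10.32 against 9.06), and the lowest for Kcnj8 (0.811, 5.68 against 6.03) and Ltbp3 (0.787, 10.17 against 10.4). Mesenteric array 3 was the highest for Cox7a1 (0.715, 7.05 against 6.72) and Gja1 (0.715, 11.11 against 10.86), and mesenteric array 4 for Cldn5 (0.771, 11.85 against 11.6). Each of these genes remained separated between the vessels. The part of the pancreatic RNA in the values of array 1 was not tested.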

How the results depend on the processing

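The choice between the scanner signals and the deposited log2 values mattered most. On the deposited values 16495 transcripts differed, of which 7.92% were higher in thoracic aorta, against 10300 and 56% in the report, and 5838 of the report's calls kept their direction. With each array centred on its median the counts were 11830 and 69.1%, with 9133 calls kept. In AngII the deposited values gave 16823 in place of 7643. Cyclic loess gave 9582 calls, 45.9% of them higher. The remaining settings (all 23 arrays together, no background correction, median scaling, detection on all 8 arrays, no filter, an offset of 50, a trended and robust prior) gave 7948 to 10821 calls. Leaving out 1 array at a time gave 8497 to 10074 calls in Sham and 5980 to 7777 in AngII.

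Replicate numbers 1 to 3 occur in the sample labels of both vessels. Deviations of same-numbered samples correlated at 0.011, 0.116 and -0.201, and those of differently numbered samples at -0.121 to 0.174. With so few arrays these values cannot tell whether same-numbered samples shared mice. The numbers were not taken as pairs. A replicate block by the label numbers, on the deposited values, gave 15524 calls, 7.83% of them higher. The intensity columns carry other numbers, some shared by both vessels, and whether these mark shared mice was not tested.

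Medians that changed sign on the deposited values, and with the replicate block on them, were those of potassium channels (-0.07 and -0.08), Hox genes (-0.22 and -0.22), the Wnt pathway (-0.22 and -0.21), elastic fibres (-0.20 and -0.20) and the basement membrane (-0.31 and -0.31). Medians that came closer to 0 by over 1.5 times in the centred deposited values include those of MHC class II (-0.75), interferon response (-0.78), chemokines (-0.38), the renin-angiotensin system (-0.39), and mesothelial (-0.05), arterial (-0.45), capillary and venous (-1.16) and lymphatic endothelial genes (-0.70). The median of calcium handling was 0.09 after centring, 0.07 with detection on all 8 arrays and -0.28 to 0.01 with 1 array left out. Detection on all 8 arrays gave 0.18 for nitric oxide and cyclic nucleotides and -0.06 for the cartilage-like matrix. The latter ranged from -0.72 to 0.86 with 1 array left out, since fewer of its genes are then tested. Detection on all 8 arrays left 14 Hox genes, 9 higher and 2 lower, and 12 potassium channels, 7 higher and 3 lower. Among single genes, the deposited values without and with the replicate block gave -0.03 and -0.04 for Acta2, -0.16 and -0.23 for Mgp (the second passing), -0.03 and -0.05 for Myl9 and -0.36 and -0.36 for Tbp (both passing). Kcnma1 was at -0.05 with the replicate block, Prox1 at 0.02 after centring, Mgp at -0.01 with all 23 arrays and 0.00 to 0.03 with 1 array left out, and Tbp at -0.03 with cyclic loess. The deposited values were normalized within each vessel, so their uncentred differences include the offset between the vessel medians. The cause of these changes was not tested beyond this construction of each setting.

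With 3 and 5 arrays, and probes whose signals near 4.95 to 5.13 cannot be told from background, folds of undetected genes are bounds. Cela2a missed the threshold under several settings.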
